A study of Mus musculus with 6 samples.

Results

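The fibroblast growth factor (FGF) genes examined here were 2 ligands (Fgf1 and Fgf2), 4 receptors (Fgfr1, Fgfr2, Fgfr3 and Fgfr4) and 4 feedback inhibitors of the Sprouty and Spred families (Spry1, Spry2, Spry4 and Spred1). They are 10 of the 25330 genes in the deposited tables and were found by their gene symbols. The group was selected on the same contrast that is described below, with Fgf1 noted as one of the largest decreases, so the values of these 10 genes are given as a description and without a test.

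The libraries came from AML12, a mouse hepatocyte cell line of wild-type genotype, and the study used them to look for genes that respond to a cell model of liver ischemia and reperfusion. The 3 Control libraries were from cells kept at 21% O2 and 5% CO2. For the 3 hypoxia-reoxygenation (H/R) libraries the medium was exchanged for one without serum and glucose, and the cells spent 6 h at 1% O2 and 5% CO2 and then 2 h under reoxygenation. Growth medium for the line was DMEM/F12 with 10% fetal bovine serum, an insulin, transferrin and selenium supplement and 40 ng/mL dexamethasone. Oxygen, serum and glucose changed together with the exchange of medium, so their effects cannot be told apart. Whether the supplement and dexamethasone were kept in the exchanged medium is not stated in the sources used here. Nor do they state whether serum and glucose were given back for the 2 h of reoxygenation. Both groups are 1 cell line without the other cells of a liver, and no source used here says that the libraries of a group were separate cultures, so p-values measure only the spread between these samples.

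FGF ligands bind receptor tyrosine kinases at the cell surface together with heparan sulfate or Klotho co-receptors, and the active receptor recruits the docking protein FRS2, which couples it to RAS, RAF, MEK and ERK. ERK activity in turn switches on genes that dampen the pathway, among them the Sprouty and Spred proteins and the nuclear and cytoplasmic ERK phosphatases of the DUSP family. In liver, FGFR4 with the co-receptor beta-Klotho restrains bile acid synthesis in response to the intestinal hormone FGF15, while FGF1 and FGF2 bind several receptors and are released without a classical secretion signal.

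Total counts were 21026650 to 21854790 in the Control libraries and 20438746 to 21742441 in the H/R libraries. Of the 11 hepatocyte markers listed, the transcription factor genes Hnf4a and Foxa2 were well covered in both groups, whereas Cps1, Serpina1a, Fga and Cyp2e1 were at or near 0 outside Control replicate 1. That library also held 59 genes with at least 10 counts there and 2 or fewer in each other library, against 0 to 2 such genes in the others. The summed level of the hepatocyte list was 281 to 320 CPM (counts scaled to the library total) in Control and 208 to 212 in H/R. For 4 biliary and progenitor markers it was 1521 to 1711 CPM in Control and 2572 to 2669 in H/R, carried by Krt19 and Krt7, while Spp1 of the same list was lower in H/R (log2 fold change -0.57, adjusted p = 2.63e-13). Endothelial markers summed to 0.14 to 0.59 CPM in Control and 0.2 to 0.46 in H/R, and stellate and fibroblast markers to 0.73 to 1.24 and 0.54 to 1.15. Macrophage and leukocyte markers summed to 3.05 to 3.71 CPM in Control and 8.61 to 10.1 in H/R, nearly all of it from Cd68 and Csf1r. Exons of Hmgxb3 on the opposite strand cover 17.8% of the exon length of Csf1r. Hmgxb3 had 778, 673 and 750 counts in Control and 934, 1048 and 1182 in H/R. How far its reads enter the value of Csf1r was not tested. The defining leukocyte genes Ptprc, Adgre1 and Clec4f had between 0 and 3 counts in every library. The part of these shifts in the values below was not tested.

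The ligand Fgf1 was 5.89-fold lower after H/R, the largest fold among the 9 genes that were tested. Fgf1 (acidic FGF) lies at chr18:38838673-38929404 on the minus strand of GRCm38, with 9 merged exons and 4648 bases of exon sequence, none of it shared with another gene. Reads on Fgf1 numbered 273, 243 and 296 in Control and 37, 38 and 50 in H/R, each in the order of replicates 1 to 3 as for all genes here. Each H/R library was far below each Control library. After scaling by TMM, edgeR's trimmed mean of M-values, the normalised read count was 258 ± 20.8 (SD, n = 3) in Control and 43.6 ± 5.54 (SD, n = 3) in H/R. The log2 fold change was -2.56 with a standard error (SE) of 0.14. Of the 14020 genes tested, 13 had a more negative log2 fold change. Leaving out each library in turn gave log2 fold changes of Fgf1 between -2.67 and -2.50, and the value without Control replicate 1 was -2.56.

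The second ligand, Fgf2 (basic FGF), was close to the limit of detection in both groups. It lies at chr3:37348346-37410108 on the plus strand. Its counts were 20, 19 and 11 in the Control libraries and 5, 2 and 11 in the H/R libraries, so that Control replicate 3 and H/R replicate 3 held the same count and the groups overlapped. Fgf2 passed the filter on low counts through its Control libraries, since H/R replicates 1 and 2 held 5 and 2 counts. The normalised read count was 15.9 ± 4.84 (SD, n = 3) in Control and 6.18 ± 4.47 (SD, n = 3) in H/R, with a log2 fold change of -1.32 (SE 0.45). This value moved to -2.04 without H/R replicate 3 and to -0.93 without H/R replicate 2. With DESeq2 it was -1.34 (SE 0.65), and Fgf2 was no longer past both thresholds there or without H/R replicate 2. Exons of Nudt6 and Gm43439 cover 13.2% of the exon length of Fgf2. Nudt6, which runs on the opposite strand, had 62, 60 and 47 counts in Control and 24, 19 and 28 in H/R (log2 fold change -1.11, edgeR quasi-likelihood adjusted p = 7.54e-05). How far reads of Nudt6 enter the value of Fgf2 was not tested.

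**Figure D1:**
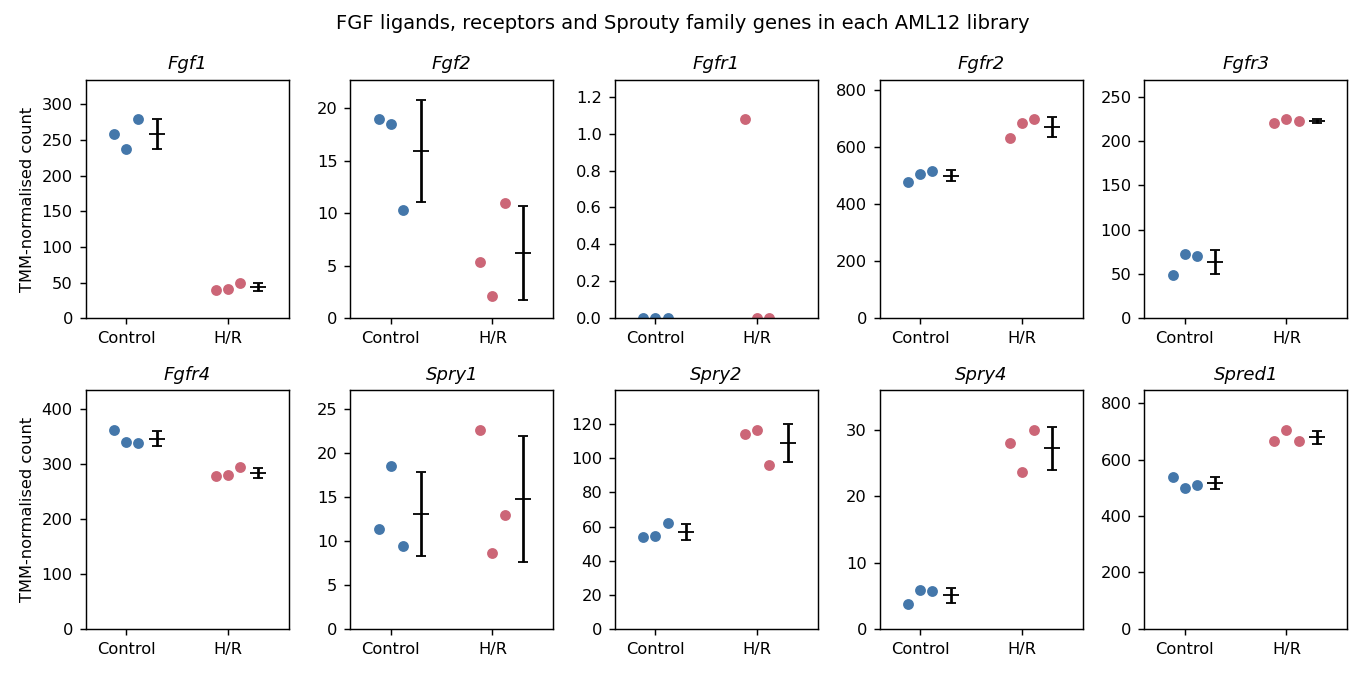
TMM-normalised read count (vertical axis, from 0, a separate scale for each gene) in the 3 Control libraries (blue) and the 3 H/R libraries (red), with the mean and SD in black. Fgf1 and Fgfr4 were lower in every H/R library, Fgfr2, Fgfr3, Spry2, Spry4 and Spred1 were higher in every H/R library, the libraries of Fgf2 and Spry1 overlap, and Fgfr1, drawn without a mean, had 1 count in all.

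Among the receptors, Fgfr4 and Fgfr2 supplied most of the transcripts, Fgfr3 was low in Control and 3.51-fold higher after H/R, and Fgfr1 was not detected above the floor. Fgfr3 (chr5:33721674-33737068, plus strand) had 51, 74 and 74 counts in Control and 205, 208 and 223 in H/R. Each H/R library was well above the highest Control library. The normalised read count was 63.4 ± 13.1 (SD, n = 3) in Control and 223 ± 1.77 (SD, n = 3) in H/R, and the log2 fold change was 1.81 (SE 0.13). Exons of G630022F23Rik on the opposite strand cover 13.9% of the exon length of Fgfr3, and that gene held 4, 0 and 0 counts in Control and 12, 17 and 6 in H/R.

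Fgfr2 (chr7:130162451-133123350, minus strand), which in epithelial cells is mostly the isoform that binds mesenchymal FGFs, had 506, 518 and 549 counts in Control and 586, 635 and 698 in H/R. The groups did not overlap, but the gap between them was small. The normalised read count was 500.4 ± 19.3 (SD, n = 3) in Control and 671 ± 35.2 (SD, n = 3) in H/R (log2 fold change 0.42, SE 0.06). The span given is that of the deposited row, which reaches beyond the RefSeq start of Fgfr2 at 130266808. Ctbp2 on the same strand shares 3.04% of the exon length of Fgfr2. It had 1289, 1302 and 1232 counts in Control and 1355, 1368 and 1528 in H/R. How far reads of Ctbp2 enter the value of Fgfr2 was not tested. Counts per gene do not separate the isoforms of Fgfr2, so their balance was not analysed here.

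Fgfr4 (chr13:55152640-55168759, plus strand), the receptor that pairs with beta-Klotho in hepatocytes, was lower after H/R. Its counts were 382, 348 and 359 in Control and 258, 259 and 294 in H/R, and each H/R library was below each Control library. The normalised read count was 346 ± 13.3 (SD, n = 3) in Control and 284 ± 8.80 (SD, n = 3) in H/R, 1.22-fold lower (log2 fold change -0.29, SE 0.08). The beta-Klotho gene Klb had 5, 1 and 10 counts in Control and 0, 1 and 1 in H/R, too few to be tested. Klb was named after its values had been seen. Fgfr1 (chr8:25513654-25575718, plus strand) had 0 counts in 5 libraries and 1 count in H/R replicate 1. At this depth 0 counts allow a level of up to 0.0139 to 0.0149 RPKM (reads scaled to gene length and library total) in a library, from 3 counts and for counting error only.

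Promoter sequence is shown for both receptors with the opposite fold changes. The windows are RefSeq sequence of GRCm38.p6 on the plus strand, 5′ to 3′, running from 250 bases before a RefSeq start and ending before the first base of the gene in the deposited tables. For Fgfr3 this is chr5:33721474-33721673 and for Fgfr4 it is chr13:55152568-55152639. Capitals mark matches on either strand to the core of the hypoxia response element (ACGTG or GCGTG) and, for Fgfr3, to the EGR motif (GCGNGGGCG).
Fgfr3: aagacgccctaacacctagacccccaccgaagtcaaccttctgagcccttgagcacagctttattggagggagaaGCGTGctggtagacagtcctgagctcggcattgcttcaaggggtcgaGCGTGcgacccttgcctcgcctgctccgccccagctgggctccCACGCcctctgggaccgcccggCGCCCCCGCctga
Fgfr4: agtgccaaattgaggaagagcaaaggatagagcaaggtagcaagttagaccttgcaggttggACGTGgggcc
Up to their RefSeq starts the full windows hold 4 hypoxia response cores and 1 EGR match for Fgfr3 and 3 cores for Fgfr4, while the window at a second RefSeq start of Fgfr3 holds none. Of all 32851 windows of 250 bases, 38.6% hold such a core and 4.70% hold an EGR match, and the EGR motif contains GCGTG where its N is T. A window was found for 7 of the 10 genes. The windows of Spred1, Fgf2 and Spry1 also held a core, and that of Fgf2 held an EGR match as well. Those of Fgfr2 and Spry2 held no match to any of the 6 motifs searched. These matches describe letters in a window and not sites of binding.

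Levels were compared between genes by RPKM, which divides by gene length. In the Control libraries the order was Fgfr4 at 4.79 ± 0.13 RPKM, Spred1 at 3.73 ± 0.13, Fgf1 at 2.72 ± 0.25 and Fgfr2 at 2.37 ± 0.13 (SD, n = 3 for each). The libraries of Fgf1 and Fgfr2 overlapped, and all other neighbours in the order were apart. Spry2 followed at 1.34 ± 0.13 RPKM and Fgfr3 at 0.43 ± 0.09, and Spry1, Fgf2 and Spry4 lay between 0.22 and 0.054 RPKM on average. After H/R, Fgf1 had moved from the third place to the sixth at 0.43 ± 0.06 RPKM, below Fgfr3 at 1.42 ± 0.02. Spred1 was then first at 4.56 ± 0.14 RPKM and Fgfr4 second at 3.65 ± 0.15. Spry4 and Spry1 overlapped at 0.27 ± 0.03 and 0.23 ± 0.11 RPKM.

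**Figure D2:**
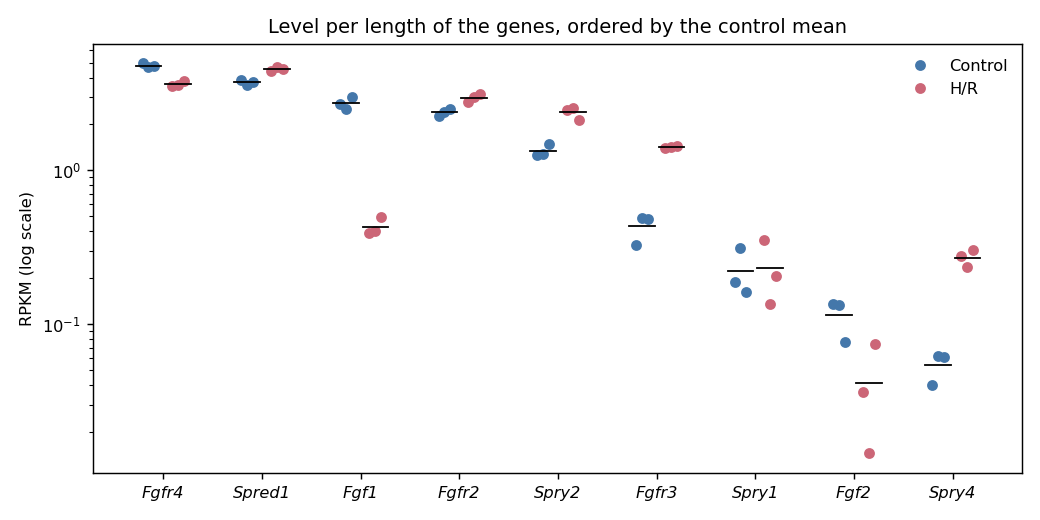
Deposited RPKM (vertical log axis) of 9 genes in the Control (blue) and H/R (red) libraries, ordered by the control mean, with black lines at the means. Fgfr1 is left out because 5 of its 6 values are 0. The mean of Fgf1 is 2.72 RPKM in Control and 0.43 in H/R, and that of Fgfr3 is 0.43 and 1.42.

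The share of Fgfr4 among the receptor transcripts was lower after H/R and that of Fgfr3 higher, while the summed RPKM was close. RPKM scales by library totals alone. With TMM the log2 fold changes of Fgfr2, Fgfr3 and Fgfr4 were each shifted upward, with Fgfr4 still lower in H/R. Scaled by totals and by TMM, the log2 fold change was 0.32 and 0.42 for Fgfr2. It was 1.71 and 1.81 for Fgfr3 and -0.39 and -0.29 for Fgfr4. Closeness of the sums is therefore shown for RPKM only, and a sum under TMM was not tested. Shares within a library do not depend on this scaling. The 4 receptors together came to 7.50, 7.55 and 7.73 RPKM in the Control libraries and 7.71, 8.01 and 8.36 in the H/R libraries, and H/R replicate 1 lay within the range of Control. Fgfr4 made up 63.1% ± 2.37 (SD, n = 3) of this sum in Control and 45.5% ± 0.69 (SD, n = 3) in H/R. The share of Fgfr3 was 5.71% ± 1.19 in Control and 17.7% ± 0.48 in H/R, and that of Fgfr2 was 31.2% ± 1.22 and 36.9% ± 0.91 (SD, n = 3 for each). No share overlapped between the groups, apart from Fgfr1 at 1 count in all. These are shares of transcripts per length and say nothing of receptor protein.

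**Figure D3:**
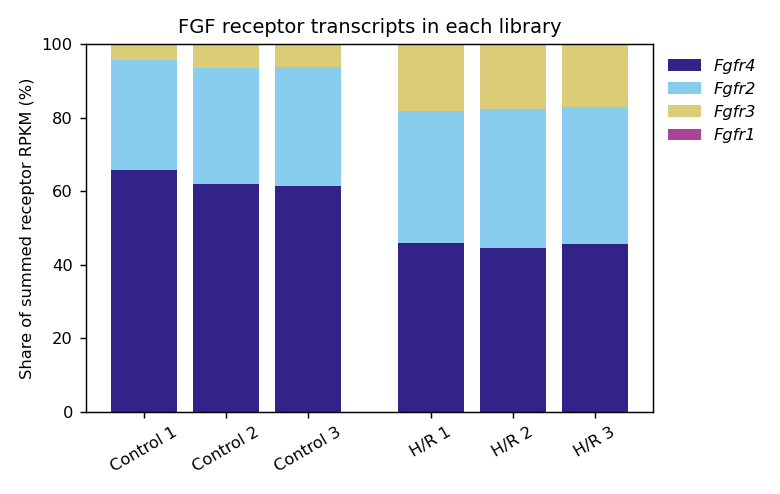
Share of the summed RPKM of the 4 FGF receptor genes (vertical axis, percent) in each library. In the 3 H/R bars the share of Fgfr4 is 44.7% to 46.0%, against 61.5% to 65.8% in Control, and the band of Fgfr3 is wider; Fgfr1 is too small to be seen.

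The feedback inhibitors were higher after H/R except for Spry1. Spry4 (minus strand of chromosome 18) had 4, 6 and 6 counts in Control and 26, 22 and 30 in H/R, with no overlap. Its normalised read count was 5.10 ± 1.14 (SD, n = 3) in Control and 27.2 ± 3.20 (SD, n = 3) in H/R (log2 fold change 2.39, SE 0.37, 5.26-fold). It passed the filter on low counts only through the H/R libraries.

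Spry2 (chr14:105891949-105896819, minus strand), which acts between the receptor and RAF, had 57, 56 and 66 counts in Control and 106, 108 and 96 in H/R. All 3 H/R libraries lay above the Control libraries. The normalised read count was 56.9 ± 4.54 (SD, n = 3) in Control and 109 ± 11.3 (SD, n = 3) in H/R (log2 fold change 0.93, SE 0.16, 1.91-fold), and 1.02 without H/R replicate 3, which put it past 2-fold. Spred1 (chr2:117121374-117182279, plus strand), which brings the RAS-GAP neurofibromin to the membrane, was the most abundant of the 4. It had 570, 513 and 541 counts in Control and 618, 653 and 667 in H/R, at a normalised 517 ± 20.6 and 679 ± 22 (SD, n = 3 for each; log2 fold change 0.39, SE 0.06). Its libraries did not overlap either, although the fold was modest.

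Spry1 (chr3:37639947-37644598, plus strand) had 12, 19 and 10 counts in Control and 21, 8 and 13 in H/R. The groups overlapped throughout. Its normalised read count was 13.1 ± 4.80 (SD, n = 3) in Control and 14.8 ± 7.16 (SD, n = 3) in H/R, and the log2 fold change of 0.17 (SE 0.38) turned to -0.26 without H/R replicate 1 and to -0.02 without Control replicate 3. Gm42922 on the opposite strand covers 24.4% of the exon length of Spry1.

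Across the group, 9 of the 10 genes passed the filter on low counts, and Fgfr1 did not. At an adjusted p under 0.05 alone, 5 were higher in H/R, where 31.0% of all tested genes were, and 3 were lower, where 31.8% were. Past both this p and a fold change of 2 there were 2 higher (Fgfr3 and Spry4, against 4.25% of all tested genes) and 2 lower (Fgf1 and Fgf2, against 4.27%). Spry4 passed the filter on low counts only through the H/R libraries, and Fgf2 passed it through the Control libraries. The libraries of the groups did not overlap for 7 of the 9, and for 65.9% of all tested genes. The median log2 fold change of the 9 was 0.39, beside -0.01 over all tested genes. Closest to the 2-fold threshold were Fgf2 just inside at -1.32 and Spry2 just outside at 0.93. Since the choice of the genes rested on these values, nothing is read from the counts.

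The rest of the pathway was taken from 6 lists of 83 further genes, of which 51 were tested. The lists were chosen with earlier results of these data known. Their counts and medians, here and below, are therefore given as a description only. At an adjusted p under 0.05 by edgeR's quasi-likelihood test 22 were higher in H/R, 14 were lower and 15 did not pass. Of all tested genes, 31.0% were higher and 31.8% lower at this p. Of the 51 genes, 7 were also at least 2-fold higher (Dusp4, Dusp5, Dusp6, Fosl1, Phlda1, Flrt3 and Sdc4) and 0 were at least 2-fold lower. Past both thresholds 4.25% of all tested genes were higher and 4.27% lower. The 7 genes stayed past both thresholds under every alternative tried. The median log2 fold change was 0.09 over the 51 genes, against -0.01 over all tested genes. The adjusted p-values below are from the same test, with Benjamini-Hochberg adjustment over all 14020 genes.

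**Figure D4:**
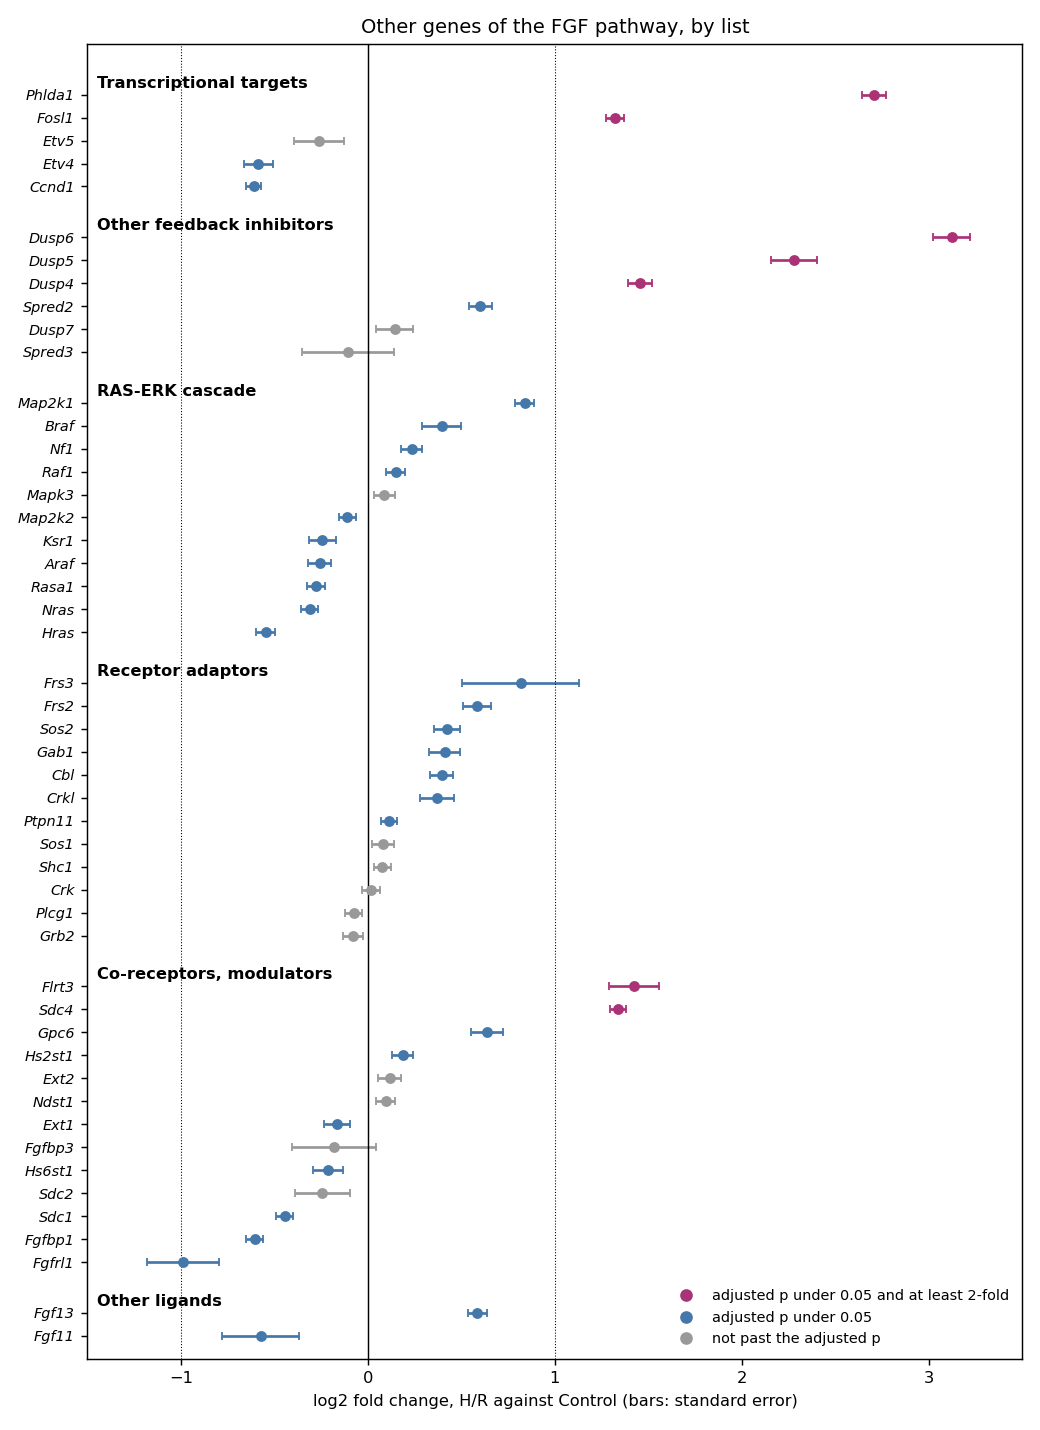
log2 fold change, H/R against Control (horizontal axis), of the tested genes of the 6 lists that are reported here, with SE bars and dotted lines at 2-fold. The phosphatase genes Dusp4, Dusp5 and Dusp6 lie to the right at 1.46, 2.28 and 3.12, while the RAS-ERK cascade spreads to both sides of 0 within 2-fold.

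The other feedback inhibitors were mostly higher after H/R, as Spry2, Spry4 and Spred1 were. Of 6 tested genes 4 were higher, 0 were lower and 2 did not pass, with a median log2 fold change of 1.03. The shares over all tested genes were 31.0% higher and 31.8% lower. Dusp6, the cytoplasmic ERK phosphatase that FGF signaling is known to induce, had 78, 82 and 90 counts in Control and 582, 686 and 712 in H/R. Every H/R library was several times above every Control library. The normalised read count rose from 79.5 ± 5.45 to 693 ± 58.8 (SD, n = 3 for each; log2 fold change 3.12, SE 0.10, adjusted p = 2.04e-24). The nuclear phosphatases Dusp5 (67.3 ± 15.6 to 327 ± 6.01, log2 fold change 2.28, adjusted p = 1.14e-17) and Dusp4 (326 ± 13.9 to 895 ± 16.3, log2 fold change 1.46, adjusted p = 5.06e-20) rose as well. Spred2, a relative of Spred1, rose from 547 ± 37.7 to 830 ± 46.5 (log2 fold change 0.60, adjusted p = 4.35e-10). Dusp7 and Spred3 were the genes that did not pass, at log2 fold changes of 0.14 and -0.11. They were named after their values had been seen.

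Promoter windows are shown for 3 feedback genes that were higher after H/R, 1 of them with matches. They are RefSeq sequence of GRCm38.p6, 5′ to 3′ in the direction of the gene, and end before the first base of the gene in the deposited tables. They come from chr14:105896820-105897069 (Spry2, minus strand), chr10:99262981-99263230 (Dusp6, plus strand) and chr19:53528895-53529108 (Dusp5, plus strand). Capitals mark matches on either strand to the motifs, which for Dusp5 are the hypoxia response core (ACGTG or GCGTG) and the CArG box of serum response factor.
Spry2: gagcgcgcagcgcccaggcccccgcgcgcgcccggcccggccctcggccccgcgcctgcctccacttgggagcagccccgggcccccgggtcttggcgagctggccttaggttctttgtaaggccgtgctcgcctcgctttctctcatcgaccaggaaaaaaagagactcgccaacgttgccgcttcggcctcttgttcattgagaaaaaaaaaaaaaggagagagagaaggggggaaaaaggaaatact
Dusp6: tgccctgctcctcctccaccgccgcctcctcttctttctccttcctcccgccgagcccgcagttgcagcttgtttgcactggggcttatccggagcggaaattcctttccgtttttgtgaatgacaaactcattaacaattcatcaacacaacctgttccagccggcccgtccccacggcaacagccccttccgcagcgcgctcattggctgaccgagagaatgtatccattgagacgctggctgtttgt
Dusp5: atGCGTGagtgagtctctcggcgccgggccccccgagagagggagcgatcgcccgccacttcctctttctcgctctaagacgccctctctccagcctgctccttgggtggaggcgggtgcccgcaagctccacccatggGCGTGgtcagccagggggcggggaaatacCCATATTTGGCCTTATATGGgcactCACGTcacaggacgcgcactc
Dusp5 holds 2 CArG boxes, 73 and 63 bases before its RefSeq start, and 3 hypoxia response cores, whereas Spry2 and Dusp6 hold none of the motifs searched. A CArG box is in 1.47% of all windows. The other motifs searched were the ETS motif CCGGAAG (6.91% of windows), the AP-1 motif TGANTCA (6.75%) and the CRE motif TGACGTCA (1.55%), and none of these was matched in the 3 windows.

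Transcriptional targets of FGF and ERK signaling did not move one way. Of 5 tested genes 2 were higher, 2 were lower and 1 did not pass, beside 31.0% higher and 31.8% lower over all tested genes. Phlda1, an early response gene, rose from 456 ± 28.7 to 2979 ± 267 normalised reads (log2 fold change 2.71, SE 0.06, adjusted p = 2.19e-22). Gm28592 on the opposite strand covers 33.0% of the exon length of Phlda1 and had 225, 194 and 176 counts in Control and 1030, 1272 and 1297 in H/R. Fosl1, a subunit of AP-1, rose from 2141 ± 113 to 5344 ± 339 (log2 fold change 1.32, adjusted p = 4.02e-21). Ccnd1, the cyclin of G1 entry, fell from 7574 ± 180 to 4962 ± 75.0 (log2 fold change -0.61, adjusted p = 4.88e-15). Oraov1 on the opposite strand covers 23.4% of its exon length and had 3807, 3921 and 4001 counts in Control and 2578, 2537 and 2787 in H/R. The ETS factor genes Etv4 and Etv5, which are widely used as readouts of FGF signaling, were named after their values had been seen. Etv4 fell (log2 fold change -0.59, adjusted p = 5.16e-08), and the value of Etv5 was -0.26 (adjusted p = 0.0909).

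Of the 20 further FGF ligand genes listed, 10 had a row in the tables and 2 were tested, Fgf13 and Fgf11. Both belong to the FGF homologous factors, which stay inside the cell, bind sodium channels and are not known as ligands of the receptors in the way Fgf1 is. Fgf13 rose from 886 ± 26.1 to 1330 ± 53.5 normalised reads (log2 fold change 0.59, adjusted p = 1.01e-11), and Fgf11 fell from 59.0 ± 10.7 to 39.4 ± 7.20 (log2 fold change -0.57, adjusted p = 0.0159). The call of Fgf11 was lost with DESeq2 (adjusted p = 0.106), without Control replicate 2 (adjusted p = 0.115) and without H/R replicate 2 (adjusted p = 0.0983). The hormone-like Fgf15 and Fgf21 had at most 1 count in a library. No other ligand that acts outside the cell passed the filter.

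Among co-receptors and extracellular modulators 4 of 13 tested genes were higher, 5 were lower and 4 did not pass. Over all tested genes these shares were 31.0% higher and 31.8% lower. Sdc4, a heparan sulfate proteoglycan of the cell surface, rose from 2609 ± 17.1 to 6597 ± 289 normalised reads (log2 fold change 1.34, SE 0.04, adjusted p = 5.33e-24). Flrt3, a membrane protein that binds FGF receptors, rose from 71.2 ± 13.8 to 191 ± 6.63 (log2 fold change 1.42, adjusted p = 2.52e-11). Fgfbp1, a carrier that frees FGFs from the matrix, fell from 3363 ± 59.1 to 2211 ± 121 (log2 fold change -0.61, adjusted p = 7.01e-14). Fgfrl1, a receptor without a kinase domain, was named after its values had been seen and fell from 75.0 ± 9.69 to 37.7 ± 5.31 (log2 fold change -0.99, adjusted p = 3.65e-05), just short of 2-fold.

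The intracellular steps changed in both directions, and none of their genes reached 2-fold. Past the adjusted p, 31.0% of all tested genes were higher and 31.8% lower. Past 2-fold as well, 4.25% were higher and 4.27% lower. Of 12 receptor adaptors 7 were higher, 0 were lower and 5 did not pass, with a median log2 fold change of 0.24. Ptpn11, the phosphatase SHP2, was higher by 0.11 on the log2 scale (adjusted p = 0.0177), which was 0.01 (adjusted p = 0.844) when libraries were scaled by their totals alone, and it did not pass without Control replicate 3 (adjusted p = 0.0718) or without H/R replicate 2 (adjusted p = 0.114). Grb2, which links the receptor complex to SOS, did not pass at -0.08 (adjusted p = 0.206). Frs2, named after its values had been seen, rose by a log2 fold change of 0.59 (adjusted p = 2.93e-08). Of 13 genes of the RAS-ERK cascade 4 were higher, 6 were lower and 3 did not pass. For Map2k2 the log2 value was -0.11 (adjusted p = 0.0369). With DESeq2 Map2k2 did not pass (adjusted p = 0.151), and it passed in only 2 of the 6 fits that left out a library. Scaling by library totals put Grb2 (adjusted p = 0.00442) past the threshold. Map2k1 and Hras, also named after their values had been seen, rose by 0.84 (adjusted p = 1.41e-16) and fell by 0.55 on the log2 scale (adjusted p = 2.29e-11). Messenger levels do not measure the activity of the kinases.

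Fgf1 and Spry4, the 2 members with the largest fold changes, are neighbours and moved in opposite directions. On chromosome 18 of GRCm38 the body of Spry4 (38586268 to 38601268, minus strand) is separated from that of Fgf1 by 237 kb. The start of Spry4 is 266 bases from that of Arhgap26 on the other strand, and Fgf1 lies within the span of Arhgap26 without sharing an exon. Of the 9 other tested genes whose whole span lies within 500 kb of either gene, none was past both thresholds. Of all tested genes, 4.25% were higher and 4.27% lower past both. At an adjusted p under 0.05, Pcdh1 (log2 fold change 0.75, adjusted p = 1.48e-14), Arhgap26 (0.27, adjusted p = 0.00499) and Ndfip1 (0.27, adjusted p = 0.000625) were higher and Rnf14 (-0.14, adjusted p = 0.00609) was lower. At this p 31.0% of all tested genes were higher and 31.8% lower. Gnpda1, 1700086O06Rik, Gm10268, 0610009O20Rik and Gm15337 did not pass, with log2 fold changes between -0.06 and 0.22. Arhgap26 did not pass with library totals (adjusted p = 0.0873), and Gnpda1 passed without H/R replicate 1 (adjusted p = 0.00762).

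The same arrangement of a ligand and a Sprouty gene is found for Fgf2 and Spry1, which are 230 kb apart on chromosome 3. This window was added after its values had been seen. Beside Nudt6, described above with Fgf2, Gm42752 was lower in H/R, at 17, 18 and 20 counts in Control and 0, 2 and 2 in H/R (log2 fold change -3.53, adjusted p = 1.73e-06). Gm42752 passed the filter on low counts only through the Control libraries. Of the 13 other tested genes in the window 5 were lower at an adjusted p under 0.05, 2 were higher and 6 did not pass. Over all tested genes 31.8% were lower and 31.0% higher. The other lower genes were Gm12531 (log2 fold change -0.63, adjusted p = 0.00265), Bbs12 (-0.53, adjusted p = 0.00399) and Spata5 (-0.20, adjusted p = 0.00644). The higher genes were Gm5148 (0.35, adjusted p = 3.87e-05) and Rps23-ps1 (0.35, adjusted p = 3.62e-05), which overlap on opposite strands with nearly the same counts, so their values are not separate.

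**Figure D5:**
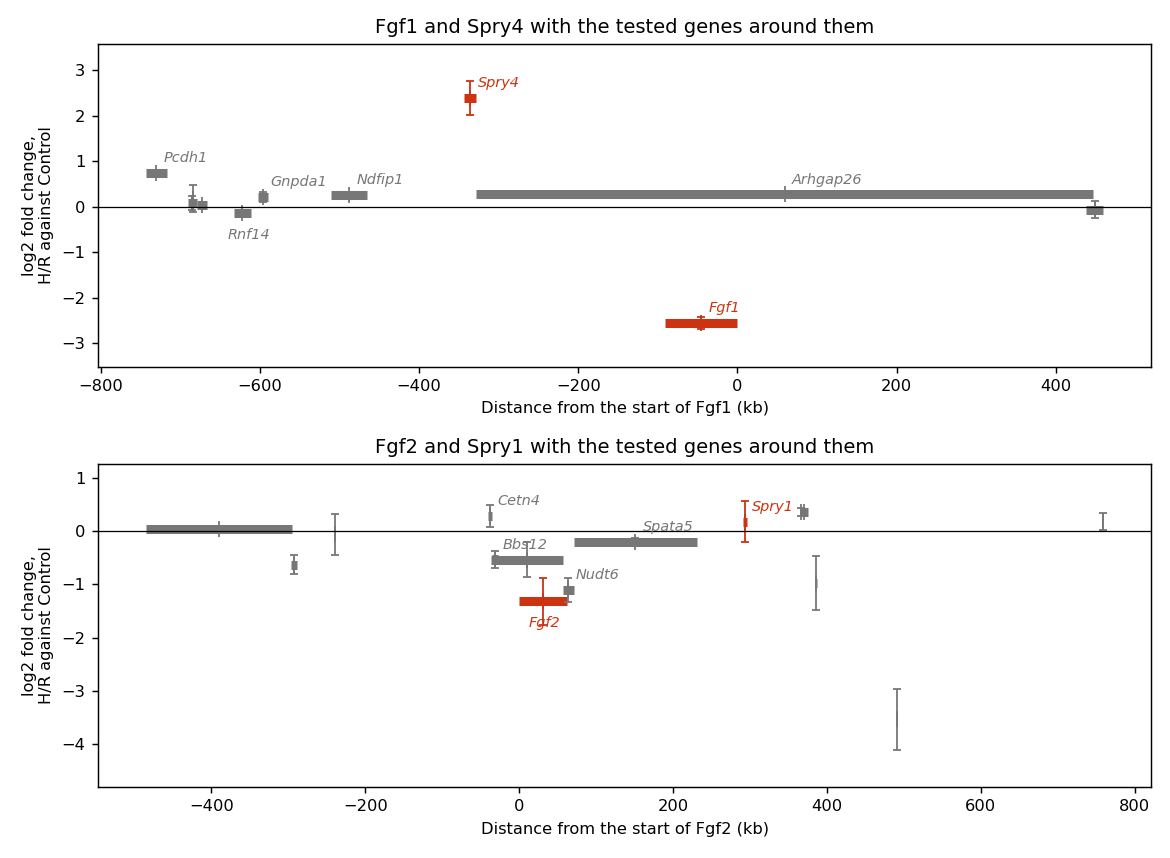
log2 fold change, H/R against Control (vertical axis, bars are SE), of tested genes by distance in kb from the start of Fgf1 (top) and of Fgf2 (bottom), with horizontal bars for the gene spans, the 4 described genes in red and others in grey. Fgf1 at -2.56 and Spry4 at 2.39 are drawn with other genes within 1 log2 unit of 0, while Fgf2 lies beside Nudt6 at -1.11.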

How the data were processed

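Each of the 6 libraries had its own table. The authors extracted RNA with TRIzol, made stranded mRNA libraries, sequenced paired ends on a NovaSeq instrument and mapped the reads to GRCm38 with software printed as STRA. The submitters' processing notes also name Trimmomatic 0.36, featureCounts of Subread 1.5.1 and edgeR 3.12.1. The deposited counts are whole, unnormalised read counts per gene. The deposited RPKM values equal the count divided by gene length and library total, with a largest relative error of 1.13e-06. The strand setting of the counting is not given in the sources used here. Genes lying inside the exons of another gene had a median RPKM ratio to it of 0.56 for 103 pairs on opposite strands and 0.23 for 190 on the same strand, so values of overlapping genes are uncertain.

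The groups were compared by edgeR 4.0.16 under R 4.3.3 (filterByExpr, TMM, estimateDisp, robust glmQLFit, glmQLFTest), 3 Control against 3 H/R libraries, with Benjamini-Hochberg adjustment over 14020 genes and SE derived from the F statistic. Calls used an adjusted p under 0.05 and a fold change of 2, the thresholds of the study. The fit was tested on simulated counts. Members, gene lists, motifs and markers were chosen with earlier results of these data known. Named genes are the 10 members, of each pathway list the genes past both thresholds and the 2 with the highest control RPKM, and tested genes within 500 kb of Fgf1 and Spry4, except where stated. Listed genes without a row were not analysed here. Values of some listed genes are not reported here, though the counts per list include them. Alternatives were DESeq2 1.42.0, other scalings, filters, dispersions and thresholds, a replicate block and leaving out each library. Total counts of 20438746 to 21854790 set the precision, and limits cover counting error only. Promoter windows and gene positions are on GRCm38.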

Additional observations from a re-analysis of the deposited data

How the results depend on the processing

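Of the 9 members with a fold change, 8 kept their direction under every alternative that could be fitted. Spry1 reversed to -0.02 without Control replicate 3 and to -0.26 without H/R replicate 1, and its values over left-out libraries ran from -0.26 to 0.50. A minimum of 10 counts in every library left Fgf2, Spry1 and Spry4 untested, so that 1 member was higher and 1 lower past both thresholds. With DESeq2 1 member was lower, since Fgf2 lost its call at a log2 fold change of -1.34, and over left-out libraries the members ran from 2 to 3 higher and from 1 to 2 lower. Among other pathway genes, 7 to 8 were higher and 0 to 1 lower over left-out libraries (1 without Control replicate 2 or H/R replicate 3), and 1 was lower without a filter on low counts, under scaling by totals and under the upper quartile. With a fold change of 1.5, 13 of these were higher and 4 lower, and over all genes 1593 were higher and 1827 lower.

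Over all tested genes the median moved from -0.01 (log2, TMM) to -0.08 with the upper quartile and -0.12 with library totals alone, and higher genes were 49.9%, 41.3% and 37.0% of those past both thresholds. Small changes moved with it. The log2 fold change of 0610009O20Rik reversed to -0.025 and -0.060 under these scalings, and that of 1700086O06Rik to -0.023 under library totals. Over left-out libraries 1700086O06Rik ran from -0.0041 to 0.17 and Gm15337 from -0.17 to 0.019, both reversing without H/R replicate 2, and 0610009O20Rik from 0.0023 to 0.098. Without a filter on low counts 1521 genes were past both thresholds, against 1195 in the reported fit and 882 with at least 10 counts in every library.

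Same-numbered libraries did not deviate together (correlations -0.027, 0.005 and -0.014), and no library correlated best with its own number. With the replicate block 1200 genes were past both thresholds, 1192 of them shared with the fit without it, and no member changed its call. With 3 libraries a group and at most 30 counts in any library, the values of Fgf2, Spry1 and Spry4 rest on few reads.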
